A study of Homo sapiens with 8 samples.

Results

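The microRNAs described here are those best known for induction by NF-kB and inflammatory signals (miR-146a-5p, miR-146b-5p and miR-155-5p) or by neuronal activity through the transcription factor CREB (both arms of miR-132 and miR-212). The rule matches names and uses no measured value, though it was set with earlier results of these data known. Of the 7 names, 5 matched a row of the 2867 entries in the deposited table, of which 903 are known microRNAs. miR-132-5p and miR-212-3p matched no row and were not analysed here.

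The cells were HEK293, an established line of human embryonic kidney cells, and small RNA was sequenced 48 h after treatment. In 4 libraries the cells had been transfected with 100 nM of ASO (antisense oligonucleotide), a short synthetic strand that pairs with a chosen RNA. The study describes such ASOs as locking the structure of a precursor microRNA, and miR-31 is the target in the library names. The 4 control libraries came from cells given no ASO, and their labels do not say whether the controls were mock-transfected. The sequencing was done to look for effects on RNAs other than the target. With no unrelated ASO among the groups, an effect of the ASO's sequence and an effect of transfecting any nucleic acid cannot be told apart.

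MicroRNAs are cut from hairpin precursors, and each arm of a hairpin can give a mature strand that guides repression of messenger RNAs through its seed, the bases near its 5′ end. miR-146a is induced by NF-kB downstream of Toll-like receptors and represses the adaptors IRAK1 and TRAF6, so it acts as a brake on the pathway that induces it. miR-155 is made from the noncoding transcript MIR155HG, is induced by Toll-like receptor ligands and interferons in macrophages, and represses SOCS1, an inhibitor of cytokine signalling. miR-132 and miR-212 are made from one transcript that CREB induces in neurons, where miR-132 represses the GTPase regulator ARHGAP32.

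The mature sequences show which members share a seed and so a set of predicted targets. They are given 5′ to 3′ from RefSeq (GRCh38.p14), with the seed, bases 2 to 8, in capitals. All 7 names matched the RefSeq table.
miR-146a-5p: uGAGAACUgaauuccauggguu
miR-146b-5p: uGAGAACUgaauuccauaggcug
miR-155-5p: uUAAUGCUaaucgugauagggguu
miR-132-3p: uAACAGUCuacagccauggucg
miR-212-3p: uAACAGUCuccagucacggcc
miR-212-5p: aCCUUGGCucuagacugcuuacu
miR-132-5p: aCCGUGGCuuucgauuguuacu
The seed of miR-146a-5p and miR-146b-5p was the same, and so was that of miR-132-3p and miR-212-3p, while miR-155-5p and the 5p arms of miR-132 and miR-212 each had their own. Among the 796 known entries of the table that had a RefSeq sequence, the miR-146 seed was found in its 2 members alone and no further entry carried the seed of miR-155-5p, miR-132-3p or miR-212-5p. miR-146a-5p and miR-146b-5p are identical over their first 17 bases and differ within 22 compared bases at G18A and U21C (the base of miR-146a-5p, its position from the 5′ end, then the base of miR-146b-5p). A read that ends before those positions could belong to either. The table's lengths differed from RefSeq by 1 base for miR-146b-5p (24 against 23), miR-155-5p (23 against 24) and miR-132-3p (23 against 22), and were the same for miR-146a-5p (22) and miR-212-5p (23).

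The genes lie at 4 loci (GRCh38, GENCODE annotation). MIR146A, at chr5:160485352-160485450 on the plus strand, lies within an exon of the long noncoding RNA gene MIR3142HG, and MIR155, at chr21:25573980-25574044 on the plus strand, within an exon of MIR155HG. MIR146B, at chr10:102436512-102436584 on the plus strand, overlaps no other annotated gene, and the nearest coding gene, CUEDC2, is 3851 bases away. MIR132 (chr17:2049908-2050008) and MIR212 (chr17:2050271-2050380) stand 262 bases apart on the minus strand, outside any other annotated gene, with HIC1 as the nearest coding gene. Their hairpins are shown with the arm that the table lists in capitals, since the 2 listed entries come from opposite arms and have different seeds.
MIR132: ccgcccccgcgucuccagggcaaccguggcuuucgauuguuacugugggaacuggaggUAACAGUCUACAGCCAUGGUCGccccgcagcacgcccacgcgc
MIR212: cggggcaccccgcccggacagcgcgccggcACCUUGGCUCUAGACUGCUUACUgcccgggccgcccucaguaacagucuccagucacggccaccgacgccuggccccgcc

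Levels are TMM-normalized CPM (the count of an entry scaled to a library of one common size), where TMM is a scaling that aligns the bulk of the entries between libraries, and fold changes are ASO over control. The total count per library was 8168828 to 11677123. The 745 entries with a mean count of at least 10 and a count above 0 in at least 4 libraries were tested, of which 539 are known microRNAs, and all 5 members were among them. The 5 members together took 0.126% of all counts. The distance of each library from the mean of the other 3 of its group, as a root mean square over the tested entries, ran from 0.753 to 1.03 on the log2 scale. Over the tested known microRNAs alone it ran from 0.494 in control library 2 to 0.825 in ASO library 3. In control library 1 that distance was 0.820. The target miR-31-5p, whose level could check the labels, had 776, 916, 1018 and 637 CPM in ASO libraries 1 to 4, against 349.8, 657, 880.4 and 1056 CPM in control libraries 1 to 4. The groups overlapped (log2 fold change 0.19, SE 0.33, edgeR adjusted p = 0.851, and −0.04 without control library 1), so the labels rest on the titles and library names alone.

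In bulk RNA, fewer cells that express a microRNA and fewer copies per cell cannot be told apart. No member passed the threshold, an adjusted p of 0.05 in edgeR's quasi-likelihood test, in either direction. Over all 745 entries that test called 1 entry (0.134%), which had a lower level with ASO, and 0 entries (0.0%) were higher. By the same test at an unadjusted p under 0.05, 2 of the 5 members passed, miR-155-5p and miR-146a-5p, both at higher levels with ASO, beside 33 of 745 entries (4.43%) in that direction and 78 (10.5%) in either. Both passed in DESeq2, an alternative test that gave an adjusted p to 422 of the 745 entries and called 23 of them (5.45%), 9 higher (2.13%) and 14 lower (3.32%). The median log2 fold change of the 5 members was 0.15, against 0.01 over all tested entries, and 3 of the 5 were above 0, against 51.7% of all entries.

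**Figure D1:**
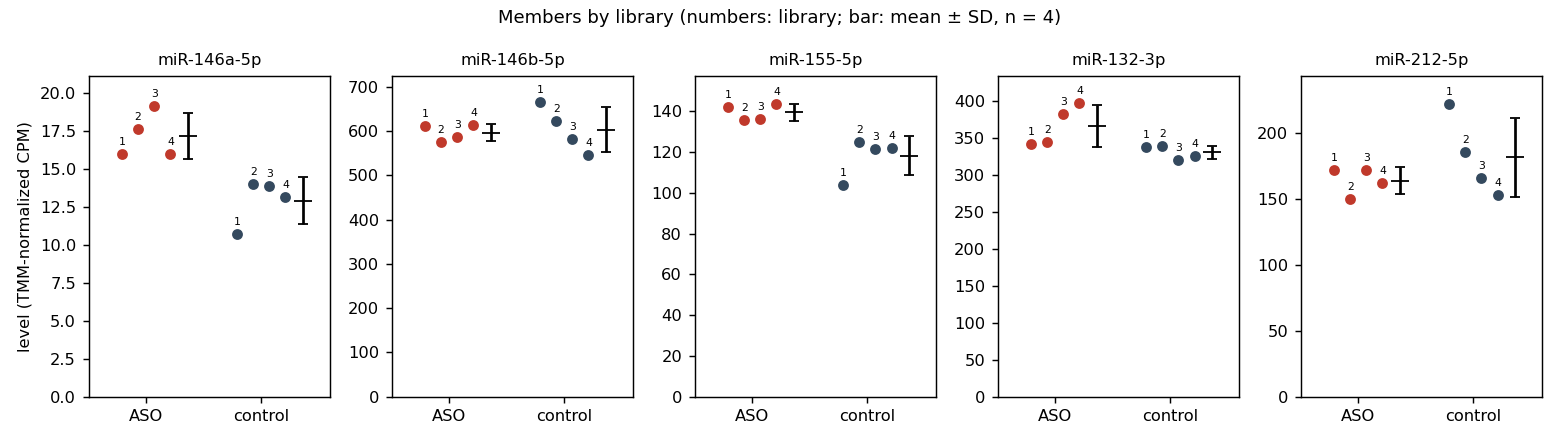
Level of each listed member in TMM-normalized CPM (vertical axes from 0, one panel per microRNA) in the ASO and control libraries, numbered by library, with the mean and SD of n = 4 as a bar. In miR-146a-5p and miR-155-5p all ASO points lie above all control points, and control library 1 is the lowest point of both. In miR-132-3p all ASO points also lie above all control points, the nearest being 341 and 339 CPM.

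Among the members induced by NF-kB, miR-146a-5p had 16.0, 17.7, 19.2 and 16.0 CPM in ASO libraries 1 to 4, against 10.7, 14.0, 13.9 and 13.2 CPM in control libraries 1 to 4. All 4 ASO libraries lay above all 4 controls. It was the member with the fewest reads, 108 to 213 counts per library. The Wilson 95% interval of ASO library 1, the lowest of its group, ran from 13.7 to 18.7 CPM, and that of control library 2, the highest of its group, from 11.8 to 16.6 CPM. The nearest libraries of the 2 groups therefore overlapped within their counting error. The mean was 17.2 ± 1.51 CPM in ASO libraries and 12.9 ± 1.53 CPM in control libraries (SD, n = 4 each), a fold of 1.33 (95% interval 1.09 to 1.62). The log2 fold change was 0.41 (SE 0.12, edgeR adjusted p = 0.402, unadjusted p = 0.0110). Among the 745 entries it ranked 17 by p and 246 by the size of the change.

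DESeq2 gave miR-146a-5p a log2 fold change of 0.41 with an adjusted p of 0.0420. With 1 library left out, that call held in 1 of 8 fits (without control library 4, adjusted p = 0.0434) and the adjusted p reached 0.261. In edgeR the log2 fold change stayed between 0.35 (without control library 1) and 0.46 over the libraries left out, with an adjusted p of 0.248 to 0.669.

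miR-155-5p, the second of the NF-kB-induced members, had 142, 136, 136 and 144 CPM in ASO libraries 1 to 4, against 104, 125, 122 and 122 CPM in control libraries 1 to 4. The groups did not overlap here either, and the ASO libraries were close to each other, while control library 1 was below the other controls. Mean levels were 139 ± 3.97 CPM in ASO libraries and 118 ± 9.57 CPM in control libraries (SD, n = 4 each), a fold of 1.18 (95% interval 1.05 to 1.33). The log2 fold change was 0.24 (SE 0.07, edgeR adjusted p = 0.402, unadjusted p = 0.0137). Without control library 1 it was 0.20 (edgeR adjusted p = 0.440), the lowest over the libraries left out, and the highest was 0.29.

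In DESeq2 miR-155-5p had a log2 fold change of 0.23 and an adjusted p of 0.00593. The call held in all 8 fits that left out 1 library, with adjusted p from 0.00897 to 0.0494. Among the ASO libraries the coefficient of variation was 2.85%, close to the 2.75% that counting alone gives at the mean count of 1324, and among controls it was 8.11%, or 1.39% without control library 1. DESeq2 and edgeR thus gave nearly the same size of change for this microRNA (0.23 and 0.24) and differed in the call.

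miR-146b-5p, which has the seed of miR-146a-5p but lies at another locus, had the highest level of the members. It had 611, 574, 586 and 614 CPM in ASO libraries 1 to 4, against 665, 622, 581 and 545 CPM in control libraries 1 to 4. The ASO libraries fell inside the range of the controls. The log2 fold change was −0.02 (SE 0.07, edgeR adjusted p = 0.965), a fold of 0.988 (95% interval 0.881 to 1.11). Its direction was not stable, since it turned to 0.0084 with library totals as the scaling and 0.0025 with no filter on low counts. It also turned on leaving out control library 1 (0.05), control library 2 (0.0052), ASO library 2 (0.00091) or ASO library 3 (0.03), and held without any other library.

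The levels of the 2 seed partners were set against each other within each library, where scaling has no part. There were 2.62, 3.08, 3.27 and 2.61 counts of miR-146a-5p per 100 of miR-146b-5p in ASO libraries 1 to 4, against 1.61, 2.25, 2.39 and 2.41 in control libraries 1 to 4. All ASO libraries were above all controls, with means of 2.89 ± 0.331 with ASO and 2.17 ± 0.375 in controls (SD, n = 4 each). The difference in the mean log2 ratio was 0.43. The exact two-sided permutation test gave p = 0.0286, the smallest that 4 against 4 libraries allow, or 0.0571 adjusted over the 2 ratios tested. The other ratio was added after its values were seen, and the adjusted p could be lower only with that ratio also at the smallest p. Without control library 1 the difference was 0.29.

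miR-146b-5p supplied most of the summed level of the 2 seed partners. The sum was 613 ± 18.2 CPM in ASO libraries and 616 ± 50.5 CPM in control libraries (SD, n = 4 each). The difference in mean log2 level was −0.0032 (exact two-sided permutation test, p = 0.971). Its sign turned on leaving out control library 1 (0.04), control library 2 (0.013), ASO library 2 (0.014) or ASO library 3 (0.003), and held without any other library. miR-146a-5p stood above its controls in every ASO library while the summed miR-146 seed group overlapped between groups.

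**Figure D2:**
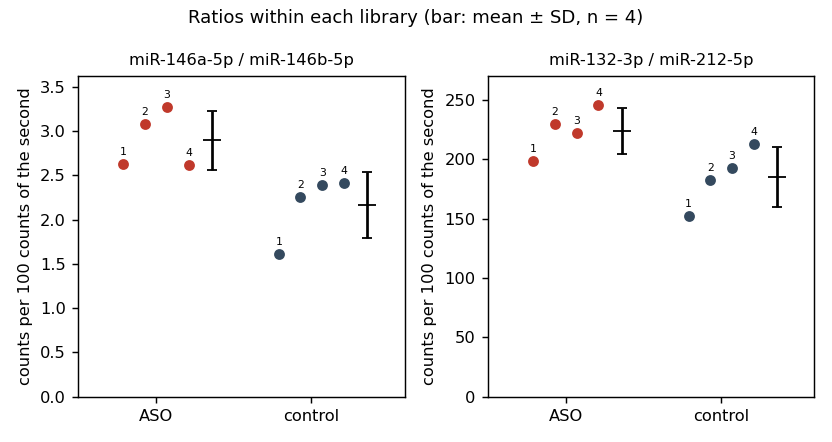
Counts of the first microRNA per 100 counts of the second within each library (vertical axes from 0), in ASO and control libraries numbered by library, with mean and SD of n = 4. For miR-146a-5p over miR-146b-5p the ASO libraries sit between 2.61 and 3.27 and the controls between 1.61 and 2.41, and for miR-132-3p over miR-212-5p the groups overlap.

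The 2 listed entries of the locus of miR-132 and miR-212 had fold changes of opposite sign, and neither passed the test. miR-132-3p, the arm with the known neuronal targets, had 341, 344, 382 and 398 CPM in ASO libraries 1 to 4, against 337, 339, 320 and 326 CPM in control libraries 1 to 4. ASO libraries 3 and 4 were the high ones, and ASO library 1 was separated from control library 2 by less than the counting error (Wilson 95% intervals of 330.1 to 353 and 327 to 351 CPM). With library totals as the scaling the groups overlapped, at 328.2 CPM in ASO library 1 and 329.5 CPM in control library 2.

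Mean miR-132-3p levels were 366 ± 27.9 CPM in ASO libraries and 330.5 ± 9.05 CPM in control libraries (SD, n = 4 each). The log2 fold change was 0.15 (SE 0.07, edgeR adjusted p = 0.445, unadjusted p = 0.0612), a fold of 1.11 (95% interval 0.994 to 1.24). DESeq2 gave it an adjusted p of 0.204. It remained between 0.11 and 0.19 on leaving out 1 library, the lowest value being without ASO library 4.

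miR-212-5p, cut from the opposite arm of the neighbouring hairpin, had 172, 150.0, 172 and 162 CPM in ASO libraries 1 to 4, against 222, 186, 166 and 153 CPM in control libraries 1 to 4. The groups overlapped, and control library 1 held the highest level. The mean was 164 ± 10.4 CPM in ASO libraries and 182 ± 29.9 CPM in control libraries (SD, n = 4 each), with a log2 fold change of −0.15 (SE 0.12, edgeR adjusted p = 0.638) and a fold of 0.903 (95% interval 0.741 to 1.10). Without control library 1 the log2 fold change was −0.02. The control coefficient of variation was 16.5% with that library and 9.77% without it, against a counting error of 2.38%.

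A ratio of the 2 entries of this locus was added after their values were seen. miR-132-3p had 199, 229.6, 222 and 246 counts per 100 of miR-212-5p in ASO libraries 1 to 4, against 152, 182, 193 and 213 in control libraries 1 to 4. The groups overlapped, with control library 4 above ASO library 1. The difference in mean log2 ratio was 0.28 (exact two-sided permutation test, p = 0.0571, and the same when adjusted over the 2 ratios), and it was 0.19 without control library 1. The summed level of both was 530.4 ± 31.7 CPM in ASO libraries and 512 ± 37.2 CPM in control libraries (SD, n = 4 each; exact two-sided permutation test of the log2 difference of 0.05, p = 0.457).

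**Figure D3:**
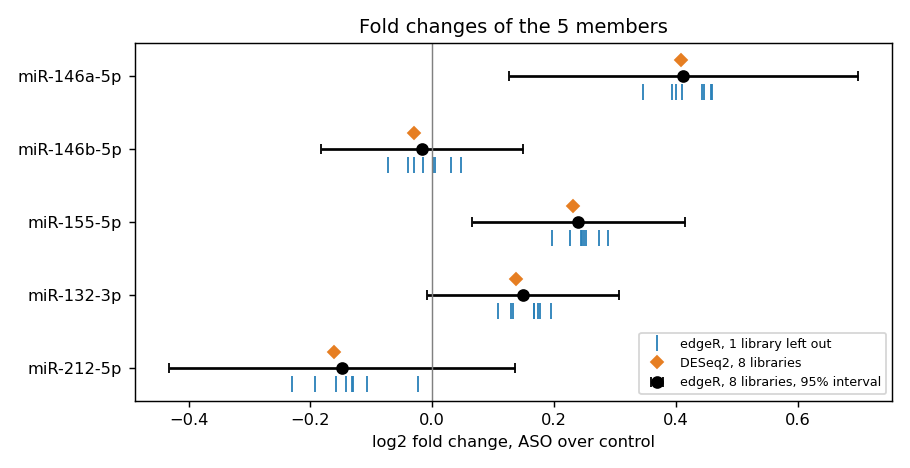
Log2 fold change (ASO over control, horizontal axis) of each listed member in edgeR with its 95% interval, in DESeq2, and in edgeR with each library left out in turn. The intervals of miR-146a-5p (0.13 to 0.70) and miR-155-5p (0.06 to 0.41) lie above 0, those of the other 3 members include 0, and the left-out fits of miR-146b-5p fall on both sides of 0.

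The order of the mean levels was miR-146b-5p, miR-132-3p, miR-212-5p, miR-155-5p and miR-146a-5p, at ranks 98, 117, 140, 149 and 291 of the 539 tested known microRNAs. No range of a member over the 8 libraries overlapped that of its neighbour in this order. Reads of a microRNA span the whole molecule, so its CPM needs no division by length, but adapter ligation favours some sequences, so the order is that of the reads and not shown to be that of the molecules. Control library 1 was an extreme of its group for 4 of the 5 members, the lowest for miR-146a-5p and miR-155-5p and the highest for miR-146b-5p and miR-212-5p. Every group has a lowest and a highest library, and control library 2 was the highest for miR-146a-5p, miR-155-5p and miR-132-3p. The part of control library 1 in the results was not tested beyond the values given without it.

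In the count of members whose groups did not overlap, miR-146a-5p and miR-155-5p were included under each of the 3 scalings tried (TMM, library totals and median ratios) and miR-132-3p under TMM alone. All lay higher with ASO. Under TMM this was 3 of 5 members, beside 23 of 745 entries (3.09%) in that direction, and 0 of 5 were lower, beside 39 entries (5.23%). In either direction 62 entries (8.32%) did not overlap. Under library totals it was 2 of 5 members, beside 2.82% of entries, and under median ratios 2 of 5, beside 3.49%.

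**Figure D4:**
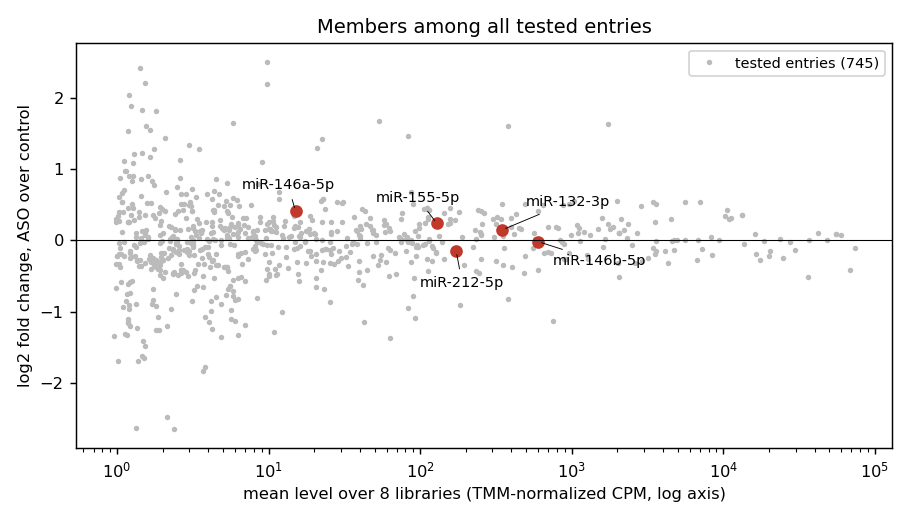
Log2 fold change (ASO over control) against mean TMM-normalized CPM over the 8 libraries (log axis) for the 745 tested entries, with the 5 members in red. The members lie between −0.15 and 0.41.

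The genes of miR-146a-5p and miR-155-5p, the 2 members with the smallest p, lie within exons of annotated noncoding host genes. The annotation gives the other members no such host, and a link between host gene and change was not tested. The promoters of these 2 hosts were searched for motifs of NF-kB, AP-1 and CREB. The windows run from 250 bases before to 50 bases after the RefSeq start (GRCh38.p14, plus strand), with GGACTTTCC (NF-kB), TGANTCA (AP-1) and TGACGTCA (CRE, the site of CREB) searched on both strands and matches in capitals.
MIR3142HG, chr5:160468001-160468300: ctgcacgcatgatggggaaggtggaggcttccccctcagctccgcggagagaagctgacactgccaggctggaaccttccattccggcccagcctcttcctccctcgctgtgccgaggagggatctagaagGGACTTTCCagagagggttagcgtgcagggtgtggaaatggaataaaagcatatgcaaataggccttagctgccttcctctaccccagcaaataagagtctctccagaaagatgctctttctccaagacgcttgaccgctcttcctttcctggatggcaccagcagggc
MIR155HG, chr21:25561895-25562194: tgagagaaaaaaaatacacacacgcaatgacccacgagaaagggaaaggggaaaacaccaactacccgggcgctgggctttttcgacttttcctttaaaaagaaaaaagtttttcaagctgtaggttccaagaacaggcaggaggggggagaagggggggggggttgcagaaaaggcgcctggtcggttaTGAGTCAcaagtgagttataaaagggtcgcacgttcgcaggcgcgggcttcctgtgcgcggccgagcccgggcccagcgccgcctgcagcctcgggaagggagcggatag
The MIR3142HG window held GGACTTTCC 119 bases before the start, and 0.37% of 35116 promoter windows of the same length held it on either strand, while the MIR155HG window did not hold it. The MIR155HG window held TGAGTCA 60 bases before the start, and TGANTCA was found in 7.71% of windows but not in that of MIR3142HG. TGACGTCA was in neither and in 1.85% of all windows. No 2 of these matches overlapped. GGACTTTCC was the only form of an NF-kB site searched, so its absence does not show that a window lacks such a site. No window was searched for MIR146B, MIR132 or MIR212. These are matches of letters in the reference sequence and no measure of binding in these cells.

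Other microRNAs of the same responses showed no call in edgeR. Of 22 further names described as responding to Toll-like receptor, cytokine or interferon signals, 12 were listed and tested, and 0 passed in either direction. Their median log2 fold change was 0.27, against 0.01 over all tested entries. Of the 12, 8 were above 0, against 51.7% of all entries. Each of these 8 had its lowest control level in control library 1. So did miR-187-3p (log2 fold change −0.07) and miR-193a-5p (−0.02) among those below 0, while miR-9-5p and miR-21-5p had their highest there. The share of all entries lowest in that library, and the median without it, were not computed. miR-365a-3p and miR-365b-3p had nearly the same counts, so the 12 are not independent. The most abundant was miR-21-5p, which is induced by NF-kB and STAT3, at 71616 ± 4918 CPM in ASO libraries and 77127 ± 7859 CPM in control libraries (SD, n = 4 each; log2 fold change −0.11, edgeR adjusted p = 0.627).

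The smallest p in that list was that of miR-29a-3p, a repressor of collagen genes. It had 349.7, 342, 338 and 302 CPM in ASO libraries 1 to 4, against 226, 281, 276 and 302 CPM in control libraries 1 to 4. ASO library 4 and control library 4 stood together, at 302.4 and 302.3 CPM, so the groups were separated by less than their counting error (log2 fold change 0.30, SE 0.10, edgeR adjusted p = 0.405, DESeq2 adjusted p = 0.0379). In that list DESeq2 called 1 of 12 entries, miR-29a-3p, higher with ASO, beside 2.13% of all entries with an adjusted p. At an unadjusted p under 0.05 edgeR had 3 of 12 higher, beside 4.43% of all entries, namely miR-29a-3p, miR-16-5p (0.50) and miR-30c-5p (0.43), the last 2 named after their values were seen. These last 2 had an edgeR adjusted p of 0.445 each and DESeq2 adjusted p of 0.122 and 0.128. Their groups overlapped, with ASO library 4 below control library 4 (907 and 928 CPM for miR-16-5p, 10586 and 11052 CPM for miR-30c-5p).

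Of 5 names described as induced by interferon beta, 4 were listed and 2 had enough counts to test, with 0 calls by edgeR or DESeq2 and 0 at an unadjusted p under 0.05. miR-196b-5p, from a HOX cluster, averaged 6772 ± 679 CPM in ASO libraries and 6756 ± 189 CPM in control libraries (SD, n = 4 each; log2 fold change 0.0034, edgeR adjusted p = 0.982, below 0 with median-ratio scaling). miR-296-3p averaged 589.8 ± 21.9 CPM in ASO libraries and 546 ± 39.1 CPM in control libraries (SD, n = 4 each; log2 fold change 0.11, edgeR adjusted p = 0.505).

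Of 11 other names described as regulated by neuronal activity or acting at synapses, 8 were listed and 7 tested, with 0 calls in edgeR. Their median log2 fold change was 0.05, and 5 of 7 were above 0, against 51.7% of all entries. DESeq2 gave an adjusted p to 5 of the 7 and called 1 higher and 1 lower, beside 2.13% and 3.32% of all entries with one. miR-329-3p, of the imprinted cluster that is activated in depolarised neurons, had 13.9, 15.0, 13.4 and 15.7 CPM in ASO libraries 1 to 4, against 8.14, 7.16, 10.2 and 10.5 CPM in control libraries 1 to 4. Its groups did not overlap (log2 fold change 0.68, SE 0.15, edgeR adjusted p = 0.3003, DESeq2 adjusted p = 0.00452), beside 3.09% of all tested entries that lay higher with ASO without overlap. With 67 to 177 counts per library, miR-329-3p also had few reads. miR-381-3p of the same cluster was the most abundant of the list, at 75.3 ± 6.61 CPM in ASO libraries and 74.5 ± 14.8 CPM in control libraries (SD, n = 4 each; log2 fold change 0.016, edgeR adjusted p = 0.972, below 0 in the fit on known microRNAs alone). The entry that DESeq2 called lower was miR-184, named after its values were seen. It had 19.9, 16.1, 16.5 and 20.01 CPM in ASO libraries 1 to 4, against 42.3, 39.4, 25.8 and 24.98 CPM in control libraries 1 to 4. The groups of miR-184 did not overlap either, beside 5.23% of all tested entries that lay lower with ASO without overlap. Its means were 18.1 ± 2.12 CPM in ASO libraries and 33.1 ± 8.99 CPM in control libraries (SD, n = 4 each; log2 fold change −0.87, SE 0.20, edgeR adjusted p = 0.349, DESeq2 adjusted p = 0.00805).

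The entries most like each member over the 8 libraries were found by the root mean square difference of mean-centred log2 levels. For miR-146a-5p these were miR-23b-3p (0.0982) and miR-942-5p (0.0995), where the median over the known microRNAs was 0.312. For miR-155-5p they were miR-429 (0.0532) and miR-22-3p (0.0544), against a median of 0.2696. miR-146b-5p was nearest to miR-30d-5p (0.0457) and miR-215-5p (0.0475), miR-132-3p to miR-26a-5p (0.0674) and miR-2110 (0.0688), and miR-212-5p to miR-455-5p (0.0518) and miR-1843 (0.0577). The root mean square of each member about its own mean was 0.231 for miR-146a-5p, 0.144 for miR-155-5p, 0.0808 for miR-146b-5p, 0.102 for miR-132-3p and 0.166 for miR-212-5p. An entry with a flat profile would lie at that distance. None of these 10 passed the threshold in edgeR, with log2 fold changes from −0.22 (miR-455-5p) to 0.31 (miR-23b-3p). The distance includes the difference between groups, so these fold changes follow in part from how the entries were chosen.

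Blood cells are where miR-146a and miR-155 are best known, so 7 markers of blood cells were looked at. Of these, miR-142-5p, miR-223-3p, miR-451a and miR-144-3p matched no row. miR-142-3p was at 0 in all 4 ASO libraries and in 3 of the 4 controls, with 0.397 CPM in control library 1. miR-150-5p was above 0 in ASO library 4 (0.583 CPM) and control library 1 (0.695 CPM) alone. miR-486-5p made up nearly all of the summed level, which was 73.4 to 89.4 CPM with ASO and 81.1 to 85.7 CPM in controls. It averaged 82.1 ± 8.19 CPM in ASO libraries and 83.1 ± 1.91 CPM in control libraries (SD, n = 4 each; log2 fold change −0.02, above 0 with library totals as the scaling). The part of blood-type RNA in the members' levels was not tested.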

How the data were processed

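The authors deposited 1 table with a raw count per microRNA entry for each of the 8 libraries. Beside them stand 8 columns under the heading TPM, which equal CPM of the deposited counts to within 0.223 CPM, and each entry's length. Per the labels' protocols, a miRNeasy kit (Qiagen) was used for extraction and a small RNA kit from NEB for the libraries. The submitters' processing notes name bcl2fastq 2.20, Trimmomatic 0.30, edgeR 3.4.6 and GRCh38. Which aligner and counter were used is not given in the sources used here.

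Groups were read from titles. The labels name no separate cultures, so p-values measure only how these libraries vary, and that variation may be technical. edgeR 4.0.16 (R 4.3.3) tested the counts with TMM scaling, a trended dispersion, a quasi-likelihood F test and Benjamini-Hochberg adjustment over all 745 entries. Standard errors are the log2 fold change over the square root of F. Levels are CPM over the tested entries' totals times the TMM factors. DESeq2 1.42.0, other scalings, other filters, known microRNAs alone, a replicate block and leaving out each library were the alternatives, with DESeq2 also run with each library left out, added after seeing the data. Sums and ratios, with 1 added to CPM or counts, had exact two-sided permutation tests over 70 arrangements (scipy 1.17.1). One count is 0.0856 to 0.122 CPM. Wilson intervals allow for counting error alone, as reads copied by PCR are not separate molecules, while intervals of fold changes come from the edgeR standard errors.

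The members and lists were chosen with earlier results of these data known. Text names every member, the most abundant and smallest-p entry of each list, the 2 entries nearest to each member, and miR-31-5p. The planned arm ratios of miR-132 and miR-212, and of miR-132-3p over miR-212-3p, could not be computed.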

Additional observations from a re-analysis of the deposited data

Results flagged for a closer look

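In 34 groups of 4 libraries, the gap between the outermost library and the next was compared with the whole range (Dixon's criterion), and 3 groups had a library that stood apart. Chance gives about 1 in 20 groups. Control library 1 had a miR-155-5p level of 104 CPM, below the remaining controls (log2 fold change 0.20 on leaving it out). Control library 1 also had the lowest log2 ratio of miR-146a-5p over miR-146b-5p, −5.94, and without it the difference between groups was 0.29. ASO library 1 had the highest miR-381-3p level of its group, 85.2 CPM, and without it the log2 fold change of miR-381-3p was −0.04.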

How the results depend on the processing

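Of the choices tried, the test changed calls among the members. DESeq2 called 2 members higher, miR-146a-5p (log2 fold change 0.41) and miR-155-5p (0.23), where edgeR called 0, and it also called 1 further innate-responsive entry higher, and 1 activity-regulated entry higher and 1 lower. DESeq2 with 1 library left out gave 0.34 to 0.45 for miR-146a-5p, 0.18 to 0.25 for miR-155-5p (0.22 without ASO library 4) and up to 0.036 for miR-146b-5p (without control library 1). In edgeR no member was called under any alternative run. Leaving out 1 library gave log2 fold changes of 0.35 to 0.46 for miR-146a-5p, −0.072 to 0.048 for miR-146b-5p, 0.20 to 0.29 for miR-155-5p, 0.11 to 0.19 for miR-132-3p and −0.23 to −0.02 for miR-212-5p. It gave differences of −0.049 to 0.042 in the summed miR-146 seed group, 0.02 to 0.09 in the sum of miR-132-3p and miR-212-5p, 0.29 to 0.48 in the ratio of miR-146a-5p over miR-146b-5p and 0.19 to 0.35 in that of miR-132-3p over miR-212-5p. With 3 against 4 libraries the exact test cannot go below 0.0571.

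miR-146b-5p reversed with library totals alone (0.0084) and no filter on low counts (0.0025). miR-196b-5p reversed with median-ratio scaling (−0.0075), a mean count of at least 100 (−0.0035), known microRNAs alone (−0.022), DESeq2 (−0.0075) and the replicate block (−0.0015), and ran from −0.026 to 0.067 with 1 library left out. miR-381-3p reversed among known microRNAs alone (−0.011; −0.069 to 0.16 with 1 library left out), miR-486-5p with library totals alone (0.0068) and no filter (0.0013; −0.057 to 0.032 with 1 library left out), and miR-31-5p was −0.036 to 0.40 with 1 library left out. The cause was not tested.

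The libraries share numbers between groups, but the labels do not state that they are pairs, and they were not taken as pairs. Deviations of same-numbered libraries correlated at 0.0073, 0.034, 0.297 and −0.039 over the tested entries. Those of different-numbered libraries correlated at −0.260 to 0.181, so the value of the libraries numbered 3 was the highest of all. With a replicate block miR-146a-5p had 0.42 (edgeR adjusted p = 0.509), miR-155-5p 0.24 (0.509), miR-132-3p 0.15, miR-212-5p −0.14 and miR-146b-5p −0.01, and the ratio of miR-146a-5p over miR-146b-5p 0.43 (exact p = 0.125, the smallest 4 pairs allow). Over all entries the edgeR calls were 0 higher and 1 lower, with 9 and 14 in DESeq2, 1 and 4 with a mean count of at least 100, 1 and 3 among known microRNAs alone, 0 and 0 with the block or no filter, and up to 3 higher and 2 lower with 1 library left out. The depth of miR-146a-5p, with 108 to 213 counts, limits its precision to a counting error of 8.01% per library.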
